A study of Mus musculus with 6 samples.

Results

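The regulators examined here are 10 genes of satellite cells and myogenesis in mouse calf muscle, read through every probe set that the platform annotation assigns to exactly 1 of them. The genes are the transcription factors Pax7, Six4, Myf5, Myod1, Myog, Myf6, Mef2a, Mef2c and Mef2d and the adhesion protein Cdh15. They were measured by 26 probe sets out of 45037 on the array that were not controls. The tested mice were integrin alpha7 transgenic, and the mice they were set against were wild type. Both were females aged 5 weeks on the SJ6/C57BL6 background and not fasted, and RNA came from gastrocnemius and soleus muscle at rest. Each of the 3 arrays of a genotype carried RNA pooled from 6 animals, 18 animals in all, so that the spread between arrays is the spread between pools and not between single mice. The sources used here do not give the promoter of the transgene or the part of the integrin gene that it carries. The wild type arrays also bear the word intronic in their titles, without explanation. The question put to these data is whether transcripts of the myogenic regulators differ when the integrin is overexpressed in otherwise uninjured young muscle.

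Skeletal muscle keeps a small reserve of stem cells, the satellite cells, between the fibre membrane and the basement membrane. Pax7 marks these cells, and Six4 and its relatives act upstream of the myogenic programme. Myf5 and Myod1 commit cells to the muscle lineage, Myog drives their differentiation into fibres, and Myf6 (also called MRF4) is the member of the same basic helix-loop-helix family that stays abundant in mature fibres. These proteins pair with E proteins and bind the E-box of muscle gene promoters, and the Mef2 proteins act beside them as MADS-box factors. Integrin alpha7 is a laminin receptor that both fibres and satellite cells carry.

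Promoter sequence from RefSeq, build GRCm38.p6, was matched by symbol for 8 of the 10 genes. The 250 bases before the annotated start are shown for Myog and Cdh15, because each gene has a single probe set on which transgenic and wild type arrays stood apart, in opposite directions. The Myog stretch lies on the plus strand at chr1:134289754-134290003 and the Cdh15 stretch on the plus strand at chr8:122848124-122848373. Capitals mark matches to the E-box CANNTG and to CTANNNNTA, a core of the Mef2 site, searched on both strands.
Myog: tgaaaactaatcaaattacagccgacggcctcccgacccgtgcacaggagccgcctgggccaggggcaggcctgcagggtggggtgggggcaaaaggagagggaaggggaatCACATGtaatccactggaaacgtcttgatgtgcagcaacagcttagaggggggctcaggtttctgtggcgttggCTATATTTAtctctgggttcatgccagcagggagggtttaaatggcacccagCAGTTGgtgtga
Cdh15: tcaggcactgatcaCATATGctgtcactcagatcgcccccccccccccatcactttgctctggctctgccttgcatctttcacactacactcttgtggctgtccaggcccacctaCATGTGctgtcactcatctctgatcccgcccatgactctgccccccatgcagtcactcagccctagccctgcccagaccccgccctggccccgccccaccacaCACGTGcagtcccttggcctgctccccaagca
The Myog stretch holds 2 E-box matches, whose first bases lie 138 and 12 bases before the start, and between them 1 match to the Mef2 core, which begins 64 bases before it. The Cdh15 stretch holds 3 E-box matches, beginning 236, 135 and 32 bases before the start, and no match to the Mef2 core. The matches to the 2 motifs do not overlap each other. Over all 32851 promoter windows of the same length, 66.2% hold an E-box match, 12.2% hold at least 3, 19% hold the Mef2 core and 13% hold both motifs. These matches describe the letters of the windows.

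The overexpressed gene was read first as a check of the labels. The signal of Itga7 was 2498, 2144 and 2072 on the transgenic arrays, against 254, 308 and 313 on the wild type arrays, a 7.32-fold difference (adjusted p = 1.67e-07, limma). Fold changes are on the log2(signal + 16) scale throughout and understate the change of dim probe sets. The correlation between pairs of arrays was 0.971 to 0.981 over the 27022 probe sets kept, those with a mean signal above about 21.7. All 9 fibre markers lay above the filter. Their summed signal was 147134 to 154947 on the transgenic and 158247 to 162585 on the wild type arrays, without overlap. The summed signal also did not overlap for 4 endothelial markers (881 to 977 in transgenic, 1035 to 1127 in wild type muscle) and 4 macrophage markers (2221 to 2501 in transgenic, 2563 to 2813 in wild type muscle). It overlapped for the fibroblast, smooth muscle and pericyte, adipocyte, Schwann cell and lymphocyte markers. Gene by gene, the arrays stood apart, lower in transgenic muscle, for Myh4, Myh1, Tnnt3, Mb and Pvalb of the fibre list. They also did for Tek and Kdr of the endothelial list, Csf1r of the macrophage list and Dcn of the fibroblast list. The other genes of these 4 lists overlapped. Rgs5 of the smooth muscle and pericyte list stood apart the other way, at 4159 to 4429 in transgenic and 3764 to 4021 in wild type muscle. Of all probe sets kept, 13.4% did not overlap, 7.5% with transgenic arrays below and 5.85% with them above. The part of these shifts in the differences described here was not tested.

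No probe set of the 10 regulators passed the test for a difference between the genotypes. Of the 26 probe sets 25 passed the filter on low signal, and 0 of these 25 passed an adjusted p of 0.05 in limma, where 0.122% of all probe sets did. At an unadjusted p under 0.05 there were 2 of 25, or 8% beside 7.85% of all probe sets. They were 1 higher in transgenic muscle, a probe set of Mef2d (3.51% of all were higher), and 1 lower, a probe set of Mef2a (4.34% of all were lower). The median difference of the 25 was -0.04 on the log2 scale, beside -0.01 over all probe sets kept, and 11 of 25 differences were above 0, beside 47.4% of all. The transgenic and wild type arrays did not overlap for 6 of the 25 probe sets, in 5 genes, or 24.0% beside 13.4% of all. Transgenic arrays lay above in 2 of these (5.85% of all) and below in 4 (7.5% of all). Probe sets of the same gene measure the same transcripts in part, so the 25 are not independent observations. The 95% interval of the difference lay wholly within 1 log2 unit of 0 for 25 of 25 probe sets and within 0.5 for 18 of them. These limits hold only on the scale with the added offset, which narrows the intervals of dim probe sets. There a 2-fold change in signal is less than 1 unit, so the limits do not exclude such a change for every regulator.

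**Figure D1:**
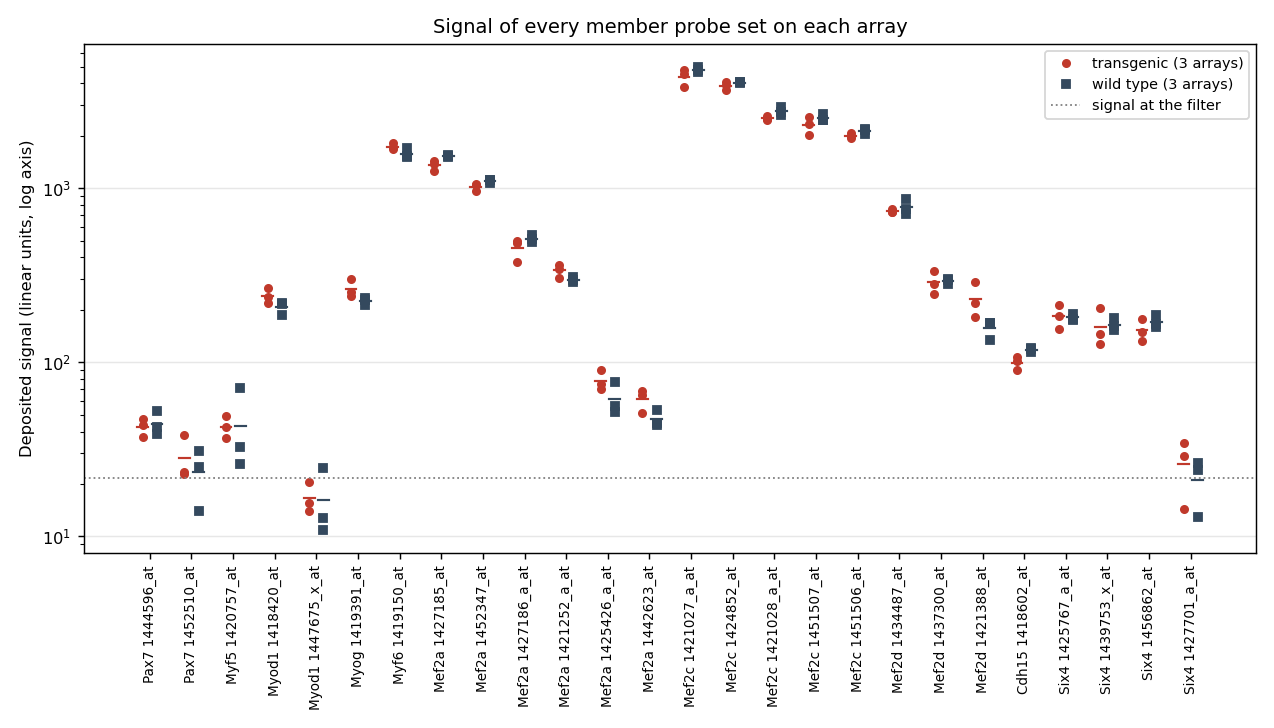
Deposited signal on a log axis for all 26 probe sets, with transgenic arrays as circles and wild type arrays as squares, 3 arrays of each, and a short line at each group mean. The dotted line is the signal at the filter, about 21.7, and only the dimmer Myod1 probe set has its overall mean below it, although single arrays of Pax7 and Six4 probe sets also lie there.

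Among the upstream factors, Pax7, the paired-box factor of satellite cells, was dim. Its probe set 1444596_at had signals of 43.5, 37.3 and 47.2 on the transgenic arrays, against 42.3, 38.8 and 52.3 on the wild type arrays. The ranges overlapped, with a log2 difference of -0.04 and a 95% interval of -0.48 to 0.40 (adjusted p = 0.978). The dimmer probe set 1452510_at gave 23.4, 38.4 and 22.9 in transgenic muscle and 25.2, 30.9 and 14.0 in wild type muscle, a difference of 0.17 with an interval of -0.43 to 0.78. In whole muscle, fewer cells of a type and less RNA per cell cannot be told apart. Satellite cells are a small share of muscle nuclei, and the low signal of Pax7 limits what these arrays resolve, since the interval of the brighter probe set runs from 0.718-fold to 1.32-fold.

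Six4, a homeodomain factor that activates myogenic genes, had 4 probe sets, and all 4 overlapped between the genotypes. The brightest, 1425767_a_at, gave 185, 214 and 155 on the transgenic arrays, against 190, 177 and 176 on the wild type arrays, a log2 difference of 0.02 (95% interval -0.27 to 0.31). The probe sets 1439753_x_at and 1456862_at gave -0.06 and -0.15, and the second was -0.25 without transgenic replicate 1 and -0.07 without transgenic replicate 3. They share a source sequence in the annotation, and the suffix of the first marks probes that may also match other genes. The dimmest, 1427701_a_at, was 25.9 ± 10.3 in transgenic and 21.1 ± 7.16 in wild type muscle (SD, n = 3 each), close to the filter, with a difference of 0.16. The transgenic arrays were spread more widely than the wild type arrays on all 4 probe sets, with an SD of 29.4 against 7.96 on the brightest.

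Of the factors that commit cells to the lineage, Myf5 was spread unevenly, with an SD of 6.07 over the transgenic and 24.1 over the wild type arrays. Its signals were 36.8, 42.5 and 48.9 in transgenic muscle, against 70.8, 32.6 and 26.2 in wild type muscle. Wild type replicate 1 was the highest of all 6 arrays, and the other two wild type arrays were the lowest. The log2 difference was 0.06 with an interval of -0.54 to 0.66. It was 0.37 without wild type replicate 1, and no other member's difference moved as far when 1 array was left out. Rounds of hybridisation were inferred here from a gap of over 30 minutes between the times in the run files. Within the first round, with 2 arrays of each genotype, the difference was -0.23, and between the 2 arrays of the second round 0.62.

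Myod1, the other commitment factor, was read by 1418420_at at 266, 237 and 220 in transgenic muscle, against 217, 187 and 220 in wild type muscle. The ranges met at the third replicate of each genotype, whose signals were the same to 3 digits. The log2 difference was 0.20, or 1.15-fold, with an interval of -0.06 to 0.46 (adjusted p = 0.734). It came from the first round of hybridisation, where it was 0.30. Without transgenic replicate 1, or without wild type replicate 2, it was 0.13. The other probe set, 1447675_x_at, lay below the filter with 16.6 ± 3.42 in transgenic and 16.1 ± 7.47 in wild type muscle (SD, n = 3 each), and its suffix marks possible matches to other genes.

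Myog, or myogenin, whose promoter is printed above, is the factor of terminal differentiation. Its signals were 302, 241 and 253 on the transgenic arrays, against 234, 228 and 212 on the wild type arrays. Every transgenic array lay above every wild type array, by a narrow gap between 241 and 234. The difference was 0.22 on the log2 scale, or 1.16-fold, with an interval of -0.03 to 0.47, and it did not pass (adjusted p = 0.696). It was 0.21 in the first round of hybridisation and 0.23 in the second. Transgenic replicate 1 carried much of it, and without that array the difference was 0.13.

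Myf6, the family member of mature fibres, gave 1814, 1722 and 1671 in transgenic muscle, against 1695, 1506 and 1529 in wild type muscle. The lowest transgenic array lay just below the highest wild type array. The difference was 0.14 with a standard error of 0.07 and an interval of -0.02 to 0.29 (adjusted p = 0.683). It was 0.14 within the first and 0.13 within the second round.

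The tested probe sets of Myf5, Myod1, Myog and Myf6 gave 4 of 4 differences above 0, of 0.06 to 0.22, and 0 of 4 passed. All 4 intervals contain 0, and the whole of each lies below 0.66 on the log2 scale. Those of Myod1, Myog and Myf6 also lie within 0.5. A difference of 1 unit on the log2(signal + 16) scale lies outside every one of them. For a dim probe set such as that of Myf5, a 2-fold change in signal is less than 1 unit on this scale.

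**Figure D2:**
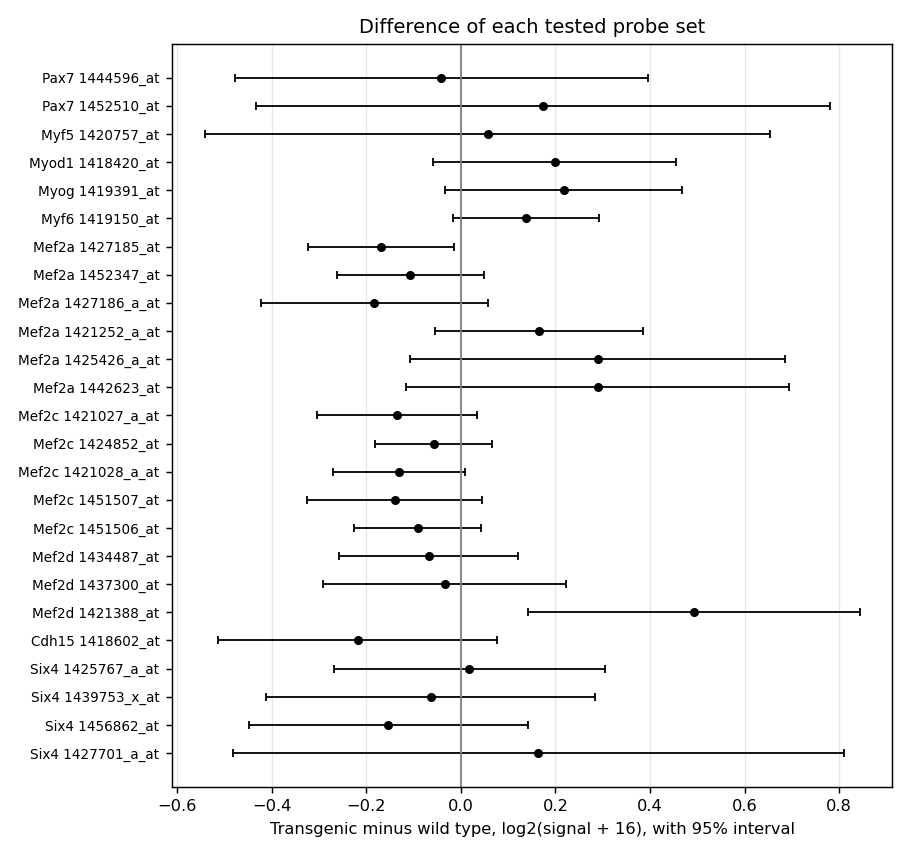
Transgenic minus wild type difference on the log2(signal + 16) scale for the 25 probe sets tested, each with its 95% interval from limma, ordered by gene and from bright to dim within a gene. The intervals of 23 probe sets contain 0. The others belong to the dimmest of the Mef2d probe sets (0.14 to 0.84) and the brightest Mef2a probe set (-0.32 to -0.02). Neither passed after adjustment.

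Mef2a, Mef2c and Mef2d encode MADS-box factors that act with the Myod1 family and, in mature fibres, on contractile and metabolic genes. They had 14 probe sets, all above the filter, of which 4 differed upwards and 10 downwards, and 0 passed. The 6 probe sets of Mef2a split by brightness. The brightest, 1427185_at, gave 1443, 1387 and 1262 on the transgenic arrays, against 1540, 1545 and 1516 on the wild type arrays. All transgenic arrays lay below all wild type arrays, with a difference of -0.17, or 0.889-fold, and an interval of -0.32 to -0.02 (adjusted p = 0.593). The next, 1452347_at, at 1038, 1057 and 964 in transgenic and 1069, 1108 and 1119 in wild type muscle, also did not overlap, with a difference of -0.11. The third, 1427186_a_at, gave -0.18 with overlap, and these 3 probe sets share 1 source sequence in the annotation. Without transgenic replicate 3 the difference was -0.07 on 1452347_at and -0.06 on 1427186_a_at.

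The other 3 Mef2a probe sets, built on other sequences, ran the opposite way. The probe set 1421252_a_at gave 363, 342 and 306 in transgenic muscle, against 309, 296 and 289 in wild type muscle, a difference of 0.17 with an interval of -0.06 to 0.39. The 2 dimmest, 1425426_a_at and 1442623_at, averaged 78.3 and 61.4 in transgenic and 61.6 and 47.2 in wild type muscle, each with a difference of 0.29 and an interval that contains 0. Transgenic and wild type arrays overlapped on all 3. The direction of Mef2a therefore depends on the probe set read, and whether the sets measure different transcript forms was not tested.

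Mef2c, a factor of muscle and heart development, was below 0 on 5 of 5 probe sets, with differences of -0.14 to -0.06. The brightest, 1421027_a_at, gave 4793, 4524 and 3832 on the transgenic arrays, against 4653, 4767 and 4965 on the wild type arrays, so that transgenic replicates 2 and 3 lay below the wild type range and replicate 1 inside it. Its difference was -0.13, and -0.04 without transgenic replicate 3. On 1421028_a_at the signals were 2605, 2495 and 2459 in transgenic and 2621, 2725 and 2947 in wild type muscle, without overlap, the nearest arrays lying at 2605 and 2621. The difference there was -0.13 with an interval of -0.27 to 0.01 (adjusted p = 0.667). The remaining 3 probe sets, 1424852_at, 1451507_at and 1451506_at, share a source sequence and gave -0.06, -0.14 and -0.09. Single arrays moved some of these values as well, to -0.05 on 1451507_at without transgenic replicate 3, to -0.02 on 1424852_at without transgenic replicate 2 and to -0.08 on 1421028_a_at without wild type replicate 3.

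Mef2d had 3 probe sets, of which the dimmest gave the largest difference in size among the 25 tested here. The brightest, 1434487_at, was 740 ± 15.3 in transgenic and 779 ± 78.2 in wild type muscle (SD, n = 3 each), a difference of -0.07. The middle one, 1437300_at, gave -0.03. The dimmest, 1421388_at, gave 219, 183 and 287 on the transgenic arrays, against 168, 167 and 134 on the wild type arrays. Every transgenic array was above every wild type array, and the difference was 0.49, or 1.41-fold, with an interval of 0.14 to 0.84 (adjusted p = 0.443). It was 0.23 within the first round of hybridisation and 1.01 between the 2 arrays of the second, since transgenic replicate 3 was the highest and wild type replicate 3 the lowest of the 6.

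**Figure D3:**
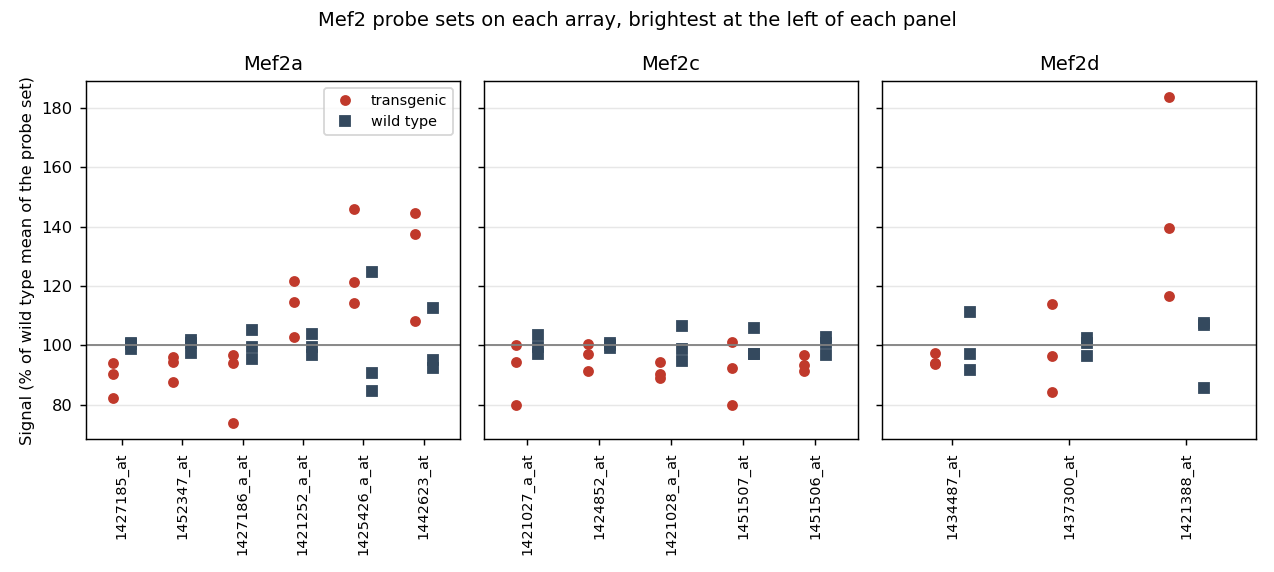
Signal of each Mef2 probe set on every array as a percent of the wild type mean of that probe set, with transgenic arrays as circles to the left of wild type arrays as squares and the brightest probe set at the left of each panel. The brighter Mef2a probe sets and all Mef2c probe sets lie at or below 100% on most transgenic arrays. The dimmer Mef2a probe sets and 1421388_at of Mef2d lie above.

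Cdh15, or M-cadherin, is the adhesion protein through which satellite cells contact the fibre, and its promoter is printed above. Its single probe set gave 101, 89.9 and 108 on the transgenic arrays, against 122, 118 and 115 on the wild type arrays. All transgenic arrays lay below all wild type arrays. The difference was -0.22, or 0.859-fold, with an interval of -0.51 to 0.08 (adjusted p = 0.745). It was -0.29 in the first round of hybridisation and -0.08 in the second. The satellite cell markers Pax7, Myf5, Cdh15, Calcr and Vcam1, summed over their brightest probe sets, gave 371 to 388 in transgenic and 349 to 433 in wild type muscle, which overlapped. The sum of linear signals weighs the brighter markers most, and Vcam1 alone gave 162 to 188 in transgenic and 132 to 187 in wild type muscle. The highest sum was on wild type replicate 1, where Myf5 was 70.8. Calcr, a receptor of quiescent satellite cells, lay below the filter, at 11.2 to 28.0 in transgenic and 9.995 to 28.3 in wild type muscle.

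The highest and lowest values fell on different arrays for different regulators. Transgenic replicate 1 held the highest value of the 6 arrays for 6 of the 25 probe sets, among them Myod1, Myog and Myf6, where it holds the highest value for 13.2% of all probe sets. Transgenic replicate 3 held the lowest value for 8 of 25, namely 3 of Mef2a, 3 of Mef2c and 2 of Six4, where it does so for 22.5% of all. The genes most like 3 of the regulators over the 6 arrays, by the root mean square difference of centred log2 values among 12941 genes, were Zfp787 at 0.0420 and Eif1a at 0.0441 for Myog, whose own spread about its mean was 0.148. For Myod1 they were Wars2 at 0.0212 and B330016D10Rik at 0.0348, against an own spread of 0.143. For Pax7 they were Shc1 at 0.0305 and Strbp at 0.0374, against 0.120. This likeness rests on 6 arrays only.

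**Figure D4:**
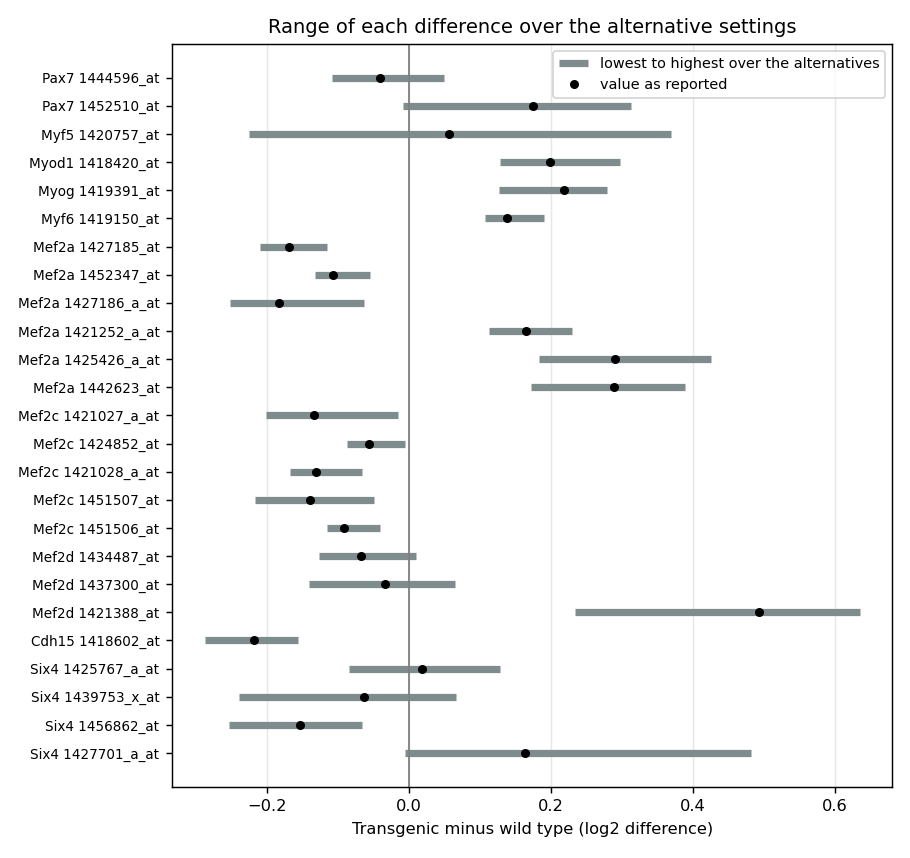
Difference of each of the 25 probe sets as reported (point) and its range over the alternative settings (bar), on the log2 scale. The bars of Myod1, Myog, Myf6, Mef2a, Mef2c, Cdh15 and 1 probe set each of Mef2d and Six4 stay on 1 side of 0, and those of Pax7, Myf5 and the other Mef2d and Six4 probe sets cross it.

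Partners and surroundings of these factors were followed in 8 lists of 106 genes, each gene by its brightest probe set above the filter, which left 93. None of the 93 passed an adjusted p of 0.05 in limma, where 0.147% of 12942 genes did. At an unadjusted p under 0.05 there were 9 higher and 6 lower, together 16.1%, beside 3.91% higher and 4.24% lower, together 8.15%, of all genes. Their median difference was 0.0033 on the log2 scale, beside -0.0037 over all genes, of which 49% were above 0.

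Among 15 genes of the satellite cell surface and niche, 10 differences were above 0, with a median of 0.10. Sdc3, a syndecan of satellite cells, had the smallest p, at 251, 279 and 334 in transgenic and 225, 262 and 185 in wild type muscle, a difference of 0.34 (adjusted p = 0.597), while its 2 dimmer probe sets gave -0.02 and -0.49. Ncam1, an adhesion molecule of satellite cells and denervated fibres, gave 0.14, and its other 2 probe sets gave 0.01 and -0.52. Notch signalling, which holds satellite cells in quiescence, had 5 of 13 differences above 0 and a median of -0.12. Its effector Hey1 gave 43.4, 48.9 and 34.98 on the transgenic arrays, against 67.7, 77.7 and 64.3 on the wild type arrays. These did not overlap, and the difference of -0.56, or 0.679-fold, had an adjusted p of 0.450. Rbpj, the transcription factor that Notch acts through, gave 458 ± 48.2 in transgenic and 382 ± 23.4 in wild type muscle (SD, n = 3 each), a difference of 0.25, and its other 2 probe sets gave -0.08 and 0.41.

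The E proteins that pair with the Myod1 family and the inhibitors that oppose them had 4 of 12 differences above 0 and a median of -0.06. Twist2, a repressor of myogenic factors, gave 60.7 ± 5.88 in transgenic and 84.0 ± 11.3 in wild type muscle (SD, n = 3 each), a difference of -0.38 (adjusted p = 0.619), and the E protein Tcf12 gave -0.15, with -0.14 to -0.03 on its other probe sets. Of 7 genes of the Eya, Dach and Tead families and relatives of Six4, 3 were above 0, with Tead1 at -0.15, and -0.34 on its dimmer probe set, and Dach2 at 0.38 from signals of 37.8 in transgenic and 24.7 in wild type muscle. Of 16 cofactors and regulators of Mef2 and Myod1 proteins 7 were above 0, with a median of -0.01. The class IIa histone deacetylase Hdac4, which represses Mef2 proteins, gave 87.1, 78.9 and 82.4 in transgenic and 113, 109 and 102 in wild type muscle, without overlap. Its difference was -0.33 (adjusted p = 0.605), and its other 2 probe sets gave -0.30 and -0.10. Smarcd3, a chromatin remodelling subunit that Myod1 recruits, gave 0.12.

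The 15 genes of myoblast fusion and early differentiation had the widest span, from -0.45 to 1.12, around a median of -0.01. At an unadjusted p under 0.05 in limma, 3 of them were higher and 2 lower, beside 3.91% and 4.24% of all genes. Myh8, the perinatal myosin heavy chain, gave 138, 128 and 102 on the transgenic arrays, against 81.4, 48.4 and 24.9 on the wild type arrays, where the 3 pools themselves differed widely (adjusted p = 0.242). Actc1, the cardiac actin of developing muscle, gave 15131, 14715 and 14141 in transgenic and 16514, 16799 and 16897 in wild type muscle. The difference was -0.19 with an adjusted p of 0.233 in limma. This signal is as bright as that of several fibre markers, whose sum was also lower in transgenic muscle. Of 6 genes known to respond to denervation 4 were above 0, with the acetylcholine receptor subunit Chrna1 at 0.18 and the kinase Musk at -0.35. Of 9 proliferation genes 7 were above 0, with a median of 0.22 and a span of -0.72 to 0.54. At an unadjusted p under 0.05 in limma there were 4 higher and 1 lower of these 9, beside 3.91% and 4.24% of all genes. The lower gene had the difference of -0.72, the largest in size of this list. The replication clamp Pcna gave 1167, 1253 and 1287 in transgenic and 1041, 1039 and 1088 in wild type muscle, a difference of 0.22 (adjusted p = 0.424). The proliferation marker Mki67 gave 54.0, 67.7 and 82.2 in transgenic and 41.6, 40.6 and 41.8 in wild type muscle, a difference of 0.54 (adjusted p = 0.515). Neither overlapped between the genotypes, and neither passed.

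**Figure D5:**
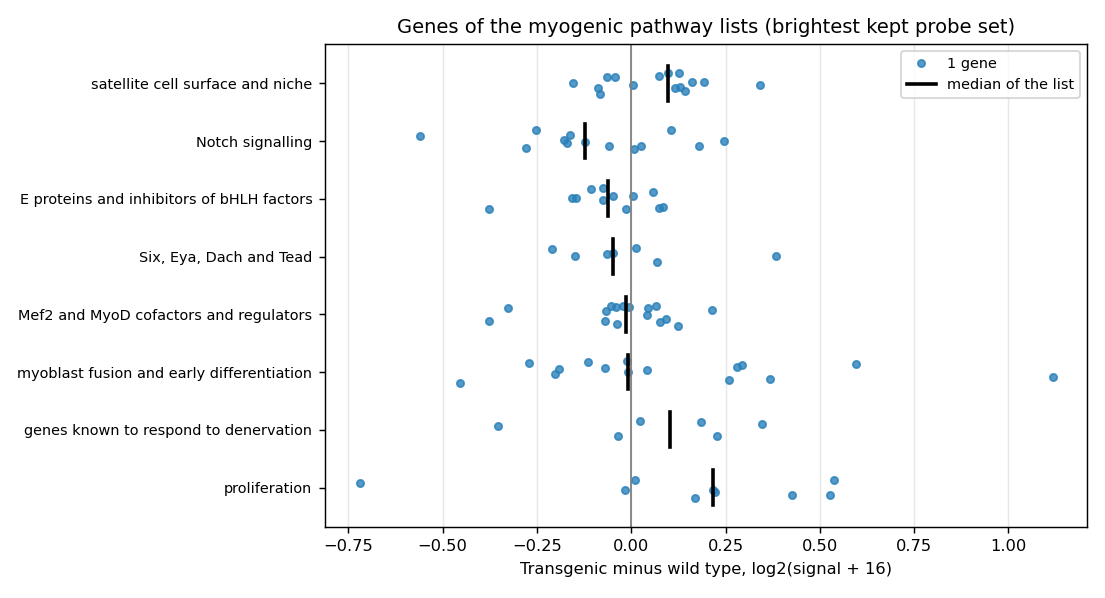
Transgenic minus wild type difference on the log2(signal + 16) scale for the 93 genes of 8 lists around the myogenic regulators, each gene a point and each list's median a vertical line, with vertical scatter within a list added for visibility only. The medians lie between -0.12 and 0.22, and the point farthest to the right is Myh8.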

How the data were processed

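Signals came from Affymetrix Mouse430_2 arrays, named per the file headers. The deposited values are a linear intensity per probe set, and the submitters' processing notes name GCOS 1.1.1. The sources used here do not give its algorithm. The values show that each array was scaled to a common trimmed mean, which hides any shift common to most transcripts. No detection calls were used, and the number of arrays limits the precision.

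After 64 controls of 45101 rows were removed, signals were taken to log2(signal + 16), and probe sets with a mean above the 40th percentile were kept. A linear model without covariates was fitted over all 27022 of them in limma 3.58.1 (R 4.3.3), with two-sided tests, an intensity trend and Benjamini-Hochberg adjustment at 0.05. Groups and replicate numbers came from the titles. Hybridisation times in the run files, split at any gap over 30 minutes, gave 2 groups of arrays, each with both genotypes. The word round is used here only for these groups by time. The run files also gave 4 fluidics modules, each with 1 genotype. Gene names came from the platform annotation, updated through gene identifiers to RefSeq (GRCm38.p6), where 34741 of 34945 probe sets with 1 symbol matched. The rule for named genes was every probe set of the 10 regulators, Itga7, the 2 genes of smallest p in each list with any that passed, and the 2 genes most like Pax7, Myod1 and Myog. The members and lists were chosen with earlier results of these data known. On simulated data for 27022 probe sets, 18% of 50 changes of 0.5 on the log2 scale and 54% of 50 changes of 1 were recovered. The simulated data also held 50 changes each of 1.5 and 2, and gave 115 calls in all, beside 33 in the real data. With more calls the adjusted threshold is easier to pass, so these shares may overstate recovery in the real data. Alternatives were other offsets, scalings, filters and variance models, array weights, blocks, and leaving out each array, and round 1 alone was added after seeing the data.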

Additional observations from a re-analysis of the deposited data

How the results depend on the processing

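None of the regulators' probe sets passed the adjusted threshold under any of the 18 alternatives or in hybridisation round 1 alone. The lowest adjusted p in limma over these was 0.0655, for 1421388_at of Mef2d when the fluidics module was a random block. There each module holds 1 genotype, and the correlation within modules was -0.44. Over all probe sets the count was 33 as reported and ran from 1, without the intensity trend, to 297, with that module block. It was 17 with no filter, 50 with equal array medians, 19 and 18 when wild type replicate 1 or 2 was left out. The module block also called 2 of the 93 list genes, and the other alternatives 0. Itga7 passed throughout. Of 25 probe sets, 17 kept their sign under every alternative that tested them. The sign turned for Pax7 1444596_at with equal array medians (0.0090) and quantile normalization (0.0027), for Mef2d 1437300_at with equal array medians (0.016), and for Six4 1425767_a_at with the module block (-0.023). In round 1 alone it turned for Myf5 (-0.23) and Six4 1439753_x_at (0.037). Leaving out 1 array gave -0.11 to 0.049 for Pax7 1444596_at, -0.0084 to 0.31 for Pax7 1452510_at and -0.15 to 0.37 for Myf5. It gave -0.13 to 0.0092 for Mef2d 1434487_at and -0.14 to 0.064 for 1437300_at. For Six4 it gave -0.085 to 0.13 for 1425767_a_at, -0.24 to 0.065 for 1439753_x_at and -0.0061 to 0.38 for 1427701_a_at. The cause of these turns was not tested. Same-numbered arrays deviated from their group means with correlations of 0.003 to 0.060, so their signals showed little shared deviation. These values cannot tell whether same-numbered pools were handled together. With the replicate block the count over all probe sets was 36 and that of the regulators 0. Dim probe sets are the least precise, with a 95% half-width of 0.44 to 0.61 for Pax7 against 0.12 to 0.18 for Mef2c. These half-widths depend on the offset. With an offset of 1 the standard error rose from 0.28 to 0.45 for Pax7 1452510_at. For Six4 1427701_a_at it rose from 0.29 to 0.50.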
